A study of Homo sapiens with 6 samples.

Results

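The SR proteins are RNA-binding splicing factors that carry a tail of alternating serine and arginine residues, and topoisomerase 1 has been described, outside these data, as a kinase of that tail as well as a DNA-relaxing enzyme. The 10 genes SRSF1, SRSF2, SRSF3, SRSF4, SRSF5, SRSF6, SRSF7, SRSF9, SRSF10 and SRSF11 were taken by symbol from the 13696 genes of the deposited table, and each symbol gave 1 gene. All 10 passed the filter of a mean of at least 1 CPM (the read count of a gene scaled to a common library total) that left 13616 genes for testing. All libraries came from hTERT RPE-1 cells, a line of human retinal pigment epithelium immortalised with telomerase. A group of 3 libraries came from cells given a pre-dose of 25 nM camptothecin, a drug that traps topoisomerase 1 on DNA, for 1 h and harvested 24 h after its removal. The other group of 3 libraries came from untreated cells. Whether the replicates were separate cultures is not said in the labels, and p-values therefore refer to the spread among these libraries alone, which may be technical.

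SR proteins recognise short elements in exons through RNA recognition motifs and recruit the splicing machinery through the serine- and arginine-rich tail. SRPK kinases phosphorylate the tail in the cytoplasm, which allows nuclear import by the transportin TNPO3, and CLK kinases phosphorylate it further in the nucleus. SR protein genes also control their own output: inclusion of a poison exon, or retention of an intron, gives transcripts that nonsense-mediated decay removes. In GENCODE release 29 the 10 genes had 107 annotated transcripts, of which 39 were protein coding, 22 were marked as targets of nonsense-mediated decay and 28 as retaining an intron. The deposited values are per gene, so coding and decay-prone transcripts are summed, and phosphorylation is not measured by them.

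Effective library totals were 26336941 to 31780391 reads. The smallest estimated read number of any of the 10 genes in any library was 2014, for SRSF7, where counting error alone gives an SD of 0.032 on the log2 scale. The replicate 1 libraries stood apart from the others: the first principal component, with 59.4% of the variance, placed pre-dose replicate 1 at -18.0 and untreated replicate 1 at -20.6, and the other 4 libraries between 6.94 and 16.4. Results are therefore also given for replicates 2 and 3 alone. Pairs below are libraries of the same replicate number, a pairing that the labels do not state. The p53 target CDKN1A, which encodes the cell cycle inhibitor p21, had 217, 573 and 472 CPM in pre-dose replicates 1 to 3, against 162, 229 and 233 CPM in the untreated ones. MDM2, the ubiquitin ligase of p53, had 57.5, 96.0 and 83.1 CPM in pre-dose and 49.96, 58.1 and 55.0 CPM in untreated libraries. Both had an adjusted p of 0.0254 in the authors' deposited table. In the limma-trend fit of all 6 libraries, used below for the SR protein genes, neither passed an adjusted p of 0.05. The log2 differences there were 0.92 for CDKN1A (interval 0.11 to 1.73) and 0.50 for MDM2 (interval 0.089 to 0.91). Both passed in replicates 2 and 3 alone (adjusted p = 2.3e-05 and 4.1e-04, limma-trend). A gene that did not pass with all 6 libraries is thus not shown to be unchanged. Of 13 markers of retinal pigment epithelium, 3 were measured (MITF, OTX2 and BEST1), with a summed level of 66.9 to 73.5 CPM in pre-dose and 65.4 to 69.3 CPM in untreated libraries. RPE65, RLBP1 and TYR, also on that list, were sought by symbol and had no row in the deposited table, which therefore gives no level for them. Of 6 markers of simple epithelium 3 were measured, the keratins KRT8, KRT18 and KRT7, and KRT19, EPCAM and CDH1 had no row. The 3 keratins summed to 1312 to 1353 CPM in pre-dose and 1323 to 1457 CPM in untreated libraries. Of 7 fibroblast markers 4 were measured, with sums of 963 to 1228 CPM in pre-dose and 1012 to 1346 CPM in untreated libraries. HBB was the measured gene among 6 blood cell markers, at 13.7 to 16.1 CPM in pre-dose and 17.2 to 19.0 CPM in untreated libraries.

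None of the 10 SR protein genes passed in the comparison of pre-dose with untreated libraries (limma-trend, adjusted p = 1.00 for each). SRSF2 had the difference farthest from 0 over the 6 libraries, -13.2% after the pre-dose with a 95% interval of -34.8% to 15.6%, and it passed, as lower, in replicates 2 and 3 alone. The remaining differences lay between -6.02% for SRSF1 and 5.15% for SRSF5. In the same test 0 of 13616 genes passed (0%), and 280 had an unadjusted p under 0.05 (2.06%), 0 of the 10 SR protein genes among them. With the replicate number as a block 0 genes passed as well, and 1443 had an unadjusted p under 0.05 (10.6%), SRSF1 and SRSF2 among them. The authors' deposited table called 418 of 13696 genes (3.05%), also with 0 SR protein genes past an adjusted p of 0.05 and 1, SRSF2, with an unadjusted p under 0.05. The groups overlapped for each of the 10 genes, while they did not overlap for 892 of the 13616 genes (6.55%), lower after the pre-dose for 3.19%. Each group holds 1 replicate 1 library, so the groups must overlap where both of these lie above, or both below, all the others. Both lay above for 7 of the 10 genes and below for 2, as for 27.2% and 28.3% of all genes. For such genes the overlap could not show a treatment difference or its absence. In bulk libraries such as these, a change in the share of cells that express a gene and a change in its RNA per cell cannot be told apart.

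**Figure D1:**
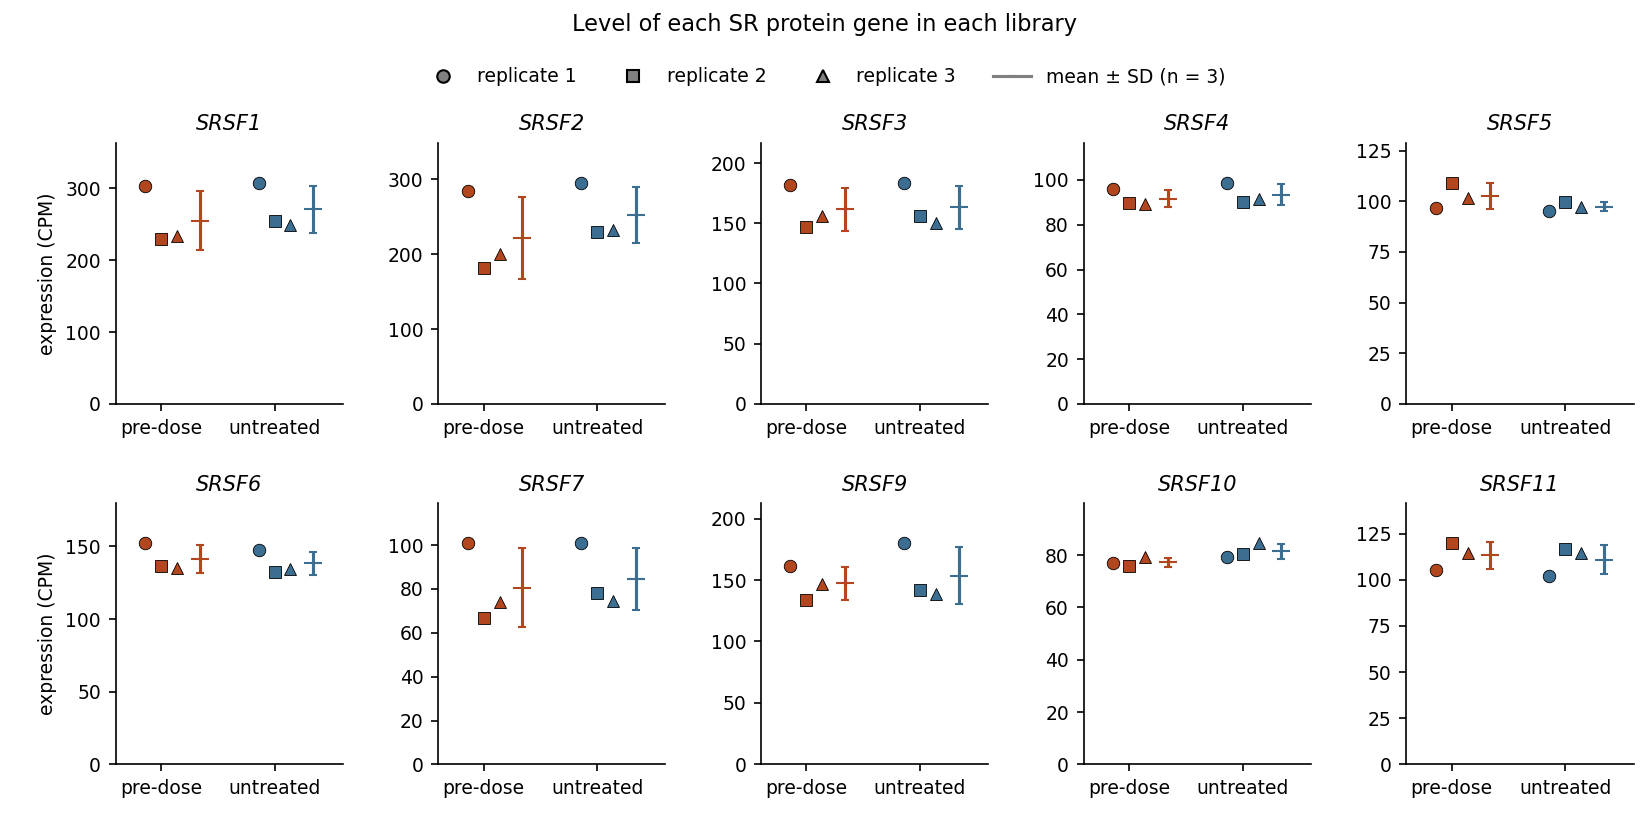
Level of each SR protein gene (CPM, linear axis from 0) in the 3 pre-dose and 3 untreated libraries, with circles, squares and triangles for replicates 1, 2 and 3 and the group mean ± SD beside them. For SRSF1, SRSF2, SRSF3, SRSF4, SRSF6, SRSF7 and SRSF9 both replicate 1 libraries lie above the other 4, so that the groups overlap.

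SRSF2 (SC35) has a single RNA recognition motif and concentrates in nuclear speckles, the stores of splicing factors. It had 284, 181 and 200 CPM in pre-dose replicates 1, 2 and 3, against 295, 230 and 232 CPM in untreated replicates 1, 2 and 3. Within each replicate number the pre-dose library was the lower, but pre-dose replicate 1 lay above untreated replicates 2 and 3. The log2 difference was -0.20 (SE 0.18, n = 3 per group, 95% interval -0.62 to 0.21), and it was -0.056, -0.34 and -0.21 in the pairs of replicates 1, 2 and 3. Its size rested on single libraries: it was -0.40 without pre-dose replicate 1, -0.073 without pre-dose replicate 2, -0.14 without pre-dose replicate 3 and -0.085 without untreated replicate 1, where SRSF10, at -0.093, lay farther from 0. In replicates 2 and 3 alone SRSF2 fell by 17.5%, a log2 difference of -0.28 with an interval of -0.37 to -0.18 and an adjusted p of 0.00468 in limma-trend. That fit called 866 of 13616 genes (6.36%), 472 of them lower (3.47%), and SRSF2 was the 1 of the 10 SR protein genes called. Markers called lower in the same fit were the keratin KRT18, with 414 and 413 CPM in pre-dose and 455 and 461 CPM in untreated replicates 2 and 3, and the collagen COL1A1, with 321 and 258 CPM in pre-dose and 409 and 428 CPM in untreated replicates 2 and 3. They were 1 of the 3 measured keratins and 1 of the 4 measured fibroblast markers. The others of these lists were not called, with log2 differences of -0.074 for KRT8, 0.033 for KRT7, 0.061 for PDGFRA, -0.013 for PDGFRB and -0.0049 for THY1. The part of KRT18 and COL1A1 in the result for SRSF2 was not tested. The difference of the replicate 1 pair from the pairs of replicates 2 and 3 was itself 0.22 (interval 0.053 to 0.39, unadjusted p = 0.0148) and did not pass in the limma interaction test (adjusted p = 0.261), in which 151 genes passed (1.11%) and 0 SR protein genes did. CDKN1A was among the 151, at -0.75 (adjusted p = 0.0189, limma interaction test), and MDM2, at -0.45, did not pass (adjusted p = 0.0966, same test). The relation of these 2 values to SRSF2 was not tested. The authors' deposited table gave SRSF2 a log2 difference of -0.23, turned here to pre-dose minus untreated, with an adjusted p of 0.107. For SRSF3 and SRSF9 that table gave 0.017 and 0.032, opposite in sign to the differences computed here, and neither passed in either source. SRSF2 lies on chromosome 17 from 76734115 to 76737374 (GRCh38, minus strand), and 1510 bases of it overlap MFSD11 on the opposite strand. AC005837.2, annotated as protein coding on the opposite strand, overlaps 3260 bases of it, and the microRNA gene MIR636 overlaps 99 bases on the same strand. Neither of these 2 has a level in the deposited table. MFSD11 averaged 13.6 CPM, against 237 CPM for SRSF2, and whether counting used the strand is not given in the sources used here.

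SRSF3, the smallest SR protein, and SRSF7, which adds a zinc knuckle to its recognition motif, both couple splicing to mRNA export through NXF1. SRSF3 had 181, 147 and 156 CPM in pre-dose and 184, 156 and 150 CPM in untreated replicates 1, 2 and 3, and the order within pairs was not the same in all 3. Its log2 difference was -0.016 (interval -0.26 to 0.23). SRSF7 had 101, 66.8 and 74.1 CPM in pre-dose and 101, 78.3 and 74.4 CPM in untreated replicates 1, 2 and 3, so that pre-dose replicate 2 was the lowest library. Its log2 difference of -0.078 had the interval -0.48 to 0.33, and the pairs gave -0.0019, -0.23 and -0.0057. With pairs read by number, the difference of SRSF7 thus lay in the replicate 2 pair. For replicates 2 and 3 that pairing rests on the shared number alone, so the difference cannot be placed in 1 pair.

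SRSF10 and SRSF11 are less typical members. SRSF10 (SRp38) becomes a splicing repressor when it is dephosphorylated, as in heat shock, and SRSF11 (p54) associates with the splice site factor U2AF. SRSF10 had 76.9, 75.9 and 79.2 CPM in pre-dose and 79.1, 80.5 and 84.6 CPM in untreated replicates 1, 2 and 3. Its groups came close to separating, with pre-dose replicate 3 above untreated replicate 1 by less than the spread within either group. The log2 difference was -0.073 (SE 0.056, interval -0.20 to 0.059), with the narrowest interval of the 10 genes. SRSF11 had 105, 120 and 115 CPM in pre-dose and 102, 117 and 114 CPM in untreated replicates 1, 2 and 3, a log2 difference of 0.029 (interval -0.15 to 0.21).

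Among the proteins with a pair of RNA recognition motifs, SRSF1 (ASF/SF2) is the best studied, as a regulator of splice site choice and of decay and translation of mRNA. It had 303, 229 and 233 CPM in pre-dose and 308, 255 and 249 CPM in untreated replicates 1, 2 and 3. The pre-dose library was the lower in every pair, and both replicate 1 libraries lay above the other 4. Its log2 difference was -0.090 (SE 0.13, interval -0.39 to 0.21), and -0.12 in replicates 2 and 3 alone (interval -0.20 to -0.049, adjusted p = 0.0542 in limma-trend), which did not pass. AC015813.2, annotated as protein coding, overlaps 3887 bases of SRSF1 on the same strand and averaged 2.51 CPM, against 263 CPM for SRSF1. SRSF9, a small protein related to SRSF1, had 161, 134 and 146 CPM in pre-dose and 180, 142 and 139 CPM in untreated replicates 1, 2 and 3. It was lower in the pairs of replicates 1 and 2 and higher in that of replicate 3, with a log2 difference of -0.053 (interval -0.32 to 0.22). SRSF9 overlaps GATC, at an average of 36.3 CPM, by 2082 bases on the opposite strand.

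SRSF4, SRSF5 and SRSF6 are related proteins, known earlier as SRp75, SRp40 and SRp55. SRSF5 had 96.5, 109 and 102 CPM in pre-dose and 94.97, 99.5 and 97.3 CPM in untreated replicates 1, 2 and 3. It was the SR protein gene with the largest positive difference, 0.072 on the log2 scale (SE 0.064, interval -0.077 to 0.22), and its pairs gave 0.023, 0.13 and 0.062. SRSF6 had 152, 136 and 135 CPM in pre-dose and 148, 133 and 134 CPM in untreated replicates 1, 2 and 3, a difference of 0.031 (interval -0.14 to 0.20). SRSF4 had 95.9, 89.5 and 89.4 CPM in pre-dose and 98.8, 90.0 and 91.6 CPM in untreated replicates 1, 2 and 3, a difference of -0.029 (interval -0.18 to 0.12). For SRSF4 and SRSF6 the highest library was 1.11 and 1.15 times the lowest, against 1.63 times for SRSF2 and 1.51 times for SRSF7.

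**Figure D2:**
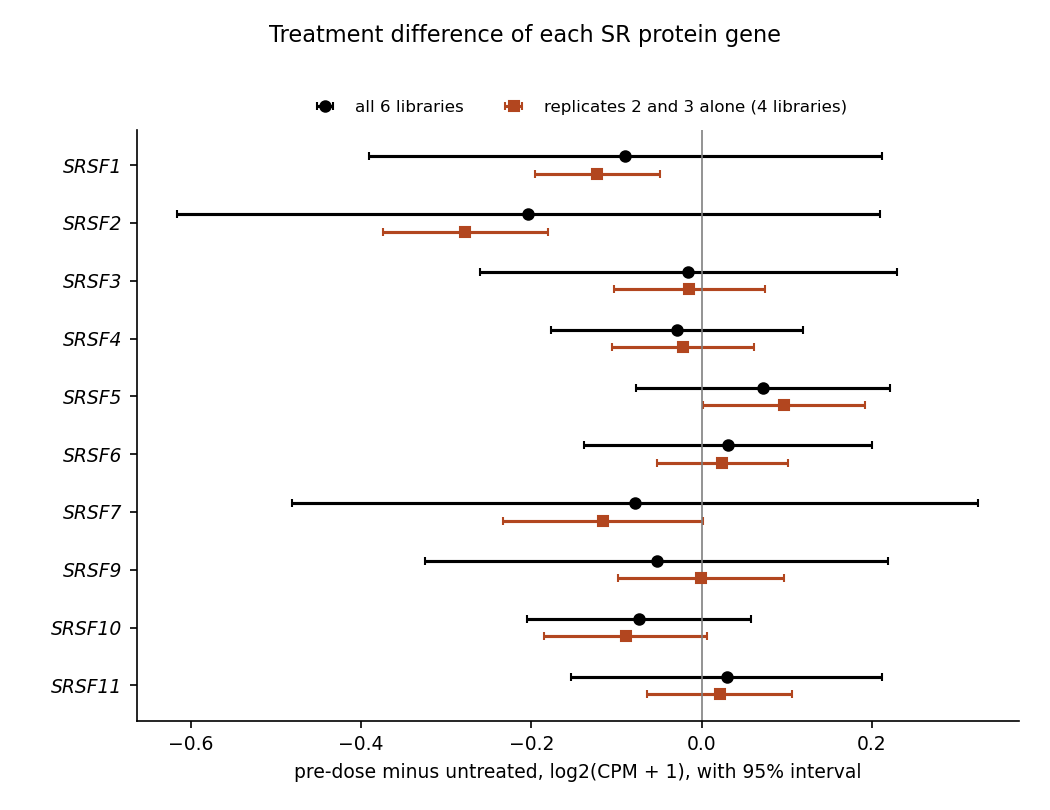
Pre-dose minus untreated difference of each SR protein gene on the log2(CPM + 1) scale with its 95% interval, from all 6 libraries (black circles) and from replicates 2 and 3 alone (orange squares). All intervals from 6 libraries cross 0, and those of SRSF2, SRSF1 and SRSF5 from replicates 2 and 3 do not, of which SRSF2 passed after adjustment.

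Over the 10 genes the median log2 difference was -0.041, against -0.0013 over all genes tested, and 7 of the 10 differences were below 0, as were 50.6% of all genes. That count depended on which library was left out. It was 3 of 10 without untreated replicate 1 and 5 of 10 without pre-dose replicate 2, with medians of 0.033 and 9.2e-05. Without any 1 of the other libraries it was 6 to 8 of 10. In each of these fits replicate 1 makes up unequal shares of the groups. In replicates 2 and 3 alone the count was 7 of 10, and with library quality weights 5 of 10. With pairs read by number, the pre-dose library was lower in all 3 pairs for 5 genes (SRSF1, SRSF2, SRSF4, SRSF7 and SRSF10), as it was for 16.3% of all genes tested, and higher in all 3 for 3 genes (SRSF5, SRSF6 and SRSF11), as for 15.6%. The 10 genes together held 1557, 1290 and 1330 CPM in pre-dose replicates 1, 2 and 3 and 1590, 1380 and 1366 CPM in the untreated ones, means of 1392 ± 144 and 1446 ± 125 CPM (SD, n = 3 each). The sum was lower after the pre-dose in all 3 pairs, and the spread within each group, which includes the distance of replicate 1, was larger than the difference between the means. With all 6 libraries, the half-width of the 95% intervals ran from 0.13 for SRSF10 to 0.41 for SRSF2 on the log2 scale, and in replicates 2 and 3 alone from 0.07 to 0.12.

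The replicate 1 libraries were set against the other 4 because these same libraries had shown them to stand apart, so their offsets describe that distance for the SR protein genes. Replicates 2 and 3 did not separate from each other by number: on the second principal component their pre-dose libraries lay at 7.86 and 7.71 and their untreated libraries at -10.1 and -8.52. Adjusted for treatment, 8 of the 10 genes differed between the replicate 1 libraries and the other 4 in limma-trend, 7 higher and 1 lower, where 5560 of all 13616 genes passed (40.8%), 2761 higher (20.3%) and 2799 lower (20.6%). Both replicate 1 libraries lay above all the others for 7 of the 10 genes, as for 27.2% of all genes, and below them for SRSF5 and SRSF11, as for 28.3%. SRSF2 averaged 290 CPM in the replicate 1 libraries, against 211 CPM in the others, an offset of 0.46 (interval 0.34 to 0.59, adjusted p = 1.93e-04, limma-trend). SRSF7 averaged 101 CPM, against 73.4 CPM, an offset of 0.46 (0.34 to 0.57). SRSF1, at 305 CPM against 242 CPM, had 0.34 (0.26 to 0.42).

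Smaller positive offsets that passed were those of SRSF9 at 0.28, SRSF3 at 0.26, SRSF6 at 0.15 and SRSF4 at 0.11. SRSF4 passed with an adjusted p of 0.0312 in limma-trend and did not pass in 5 of the 6 fits that left out a library, with adjusted p up to 0.124, the exception being the fit without pre-dose replicate 2. SRSF11 was lower in the replicate 1 libraries, at 104 CPM against 116 CPM, an offset of -0.17 (-0.25 to -0.086, adjusted p = 0.00519, limma-trend). SRSF5 and SRSF10, at -0.088 and -0.036, did not pass. The labels name no batch. The fibroblast markers also stood apart there, with a sum of 963 to 1012 CPM in the replicate 1 libraries and 1160 to 1346 CPM in the others, and the keratin sum was 1312 to 1323 CPM against 1347 to 1457 CPM. Their part in the offset of the SR protein genes was not tested.

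**Figure D3:**
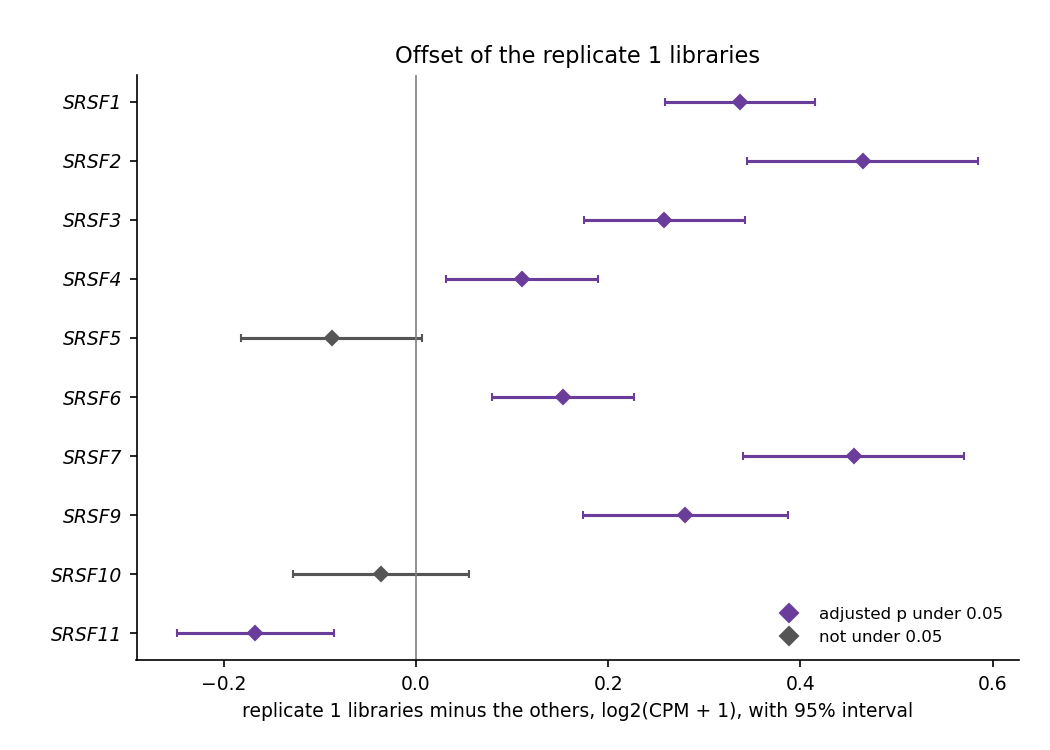
Offset of the replicate 1 libraries (1 pre-dose, 1 untreated) from the other 4 for each SR protein gene, on the log2(CPM + 1) scale with its 95% interval, with the treatment in the model. The 7 genes to the right of 0 and SRSF11 to the left, in purple, passed an adjusted p of 0.05, and SRSF5 and SRSF10 did not.

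Sequences before the transcription start are shown for members on both sides of this offset: SRSF1, SRSF3 and SRSF7, which passed as higher in the replicate 1 libraries, SRSF11, which passed as lower, and SRSF5, whose offset was below 0 without passing. Of the 10 genes, 9 matched an entry in the RefSeq promoter table (GRCh38.p14), from which the 250 bases before the start were read. SRSF2 had none. SRSF7 and SRSF11 had more than 1 start in that table, and the start with the most coding GENCODE transcripts within 50 bases was taken. Capitals mark matches, on either strand, to the letters TATAAA of the core promoter box of that name, the letters CCAAT of the box named after them, the letters GGGCGG of the GC box, the letters TGACGT at the core of the cyclic AMP response element, or the letters CTTCCG at the core bound by ETS factors.
SRSF1, chr17:58007247-58007496, minus strand: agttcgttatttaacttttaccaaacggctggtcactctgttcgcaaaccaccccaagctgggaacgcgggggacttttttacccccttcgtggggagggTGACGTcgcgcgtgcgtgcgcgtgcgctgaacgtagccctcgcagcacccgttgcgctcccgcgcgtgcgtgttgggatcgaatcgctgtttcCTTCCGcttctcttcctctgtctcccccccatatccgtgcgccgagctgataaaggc
SRSF3, chr6:36594112-36594361, plus strand: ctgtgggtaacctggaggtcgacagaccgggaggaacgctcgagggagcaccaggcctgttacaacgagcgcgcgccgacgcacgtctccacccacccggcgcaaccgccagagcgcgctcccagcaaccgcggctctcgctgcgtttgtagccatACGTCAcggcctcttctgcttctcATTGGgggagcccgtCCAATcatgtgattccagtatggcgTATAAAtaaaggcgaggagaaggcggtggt
SRSF7, chr2:38751495-38751744, minus strand: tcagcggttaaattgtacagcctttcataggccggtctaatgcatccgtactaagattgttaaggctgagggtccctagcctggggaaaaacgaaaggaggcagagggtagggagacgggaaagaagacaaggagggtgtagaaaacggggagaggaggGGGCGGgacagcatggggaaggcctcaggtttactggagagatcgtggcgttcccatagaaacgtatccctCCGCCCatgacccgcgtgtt
SRSF5, chr14:69766892-69767141, plus strand: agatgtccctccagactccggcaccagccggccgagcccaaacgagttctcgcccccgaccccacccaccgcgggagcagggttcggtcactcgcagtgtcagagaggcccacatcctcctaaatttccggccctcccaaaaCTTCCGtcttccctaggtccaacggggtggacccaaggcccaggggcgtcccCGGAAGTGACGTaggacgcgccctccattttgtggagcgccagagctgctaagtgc
SRSF11, chr1:70205446-70205695, plus strand: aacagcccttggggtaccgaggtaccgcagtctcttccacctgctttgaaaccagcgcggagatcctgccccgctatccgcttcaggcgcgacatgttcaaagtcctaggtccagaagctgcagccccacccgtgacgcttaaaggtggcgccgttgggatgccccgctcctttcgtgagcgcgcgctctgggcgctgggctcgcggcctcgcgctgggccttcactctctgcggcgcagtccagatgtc

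The core of the cyclic AMP response element was found before SRSF1, SRSF3 and SRSF5, 3 of the 9 genes, and in 7.10% of the 35116 promoters of the table read over the same length. The ETS core was found before SRSF1, SRSF4 and SRSF5, against 16.5% of all promoters, and before SRSF5 a match to it abuts the cyclic AMP response element core. The GC box was found before SRSF4, SRSF6 and SRSF7, against 42.6%. SRSF3 alone of the 9 held the letters TATAAA, found in 10.7% of all promoters, and it also held 2 matches to the letters CCAAT, found in 32.0%. SRSF9, SRSF10 and SRSF11 held none of the 5 motifs in this window. SRSF1 and SRSF3 passed as higher in the replicate 1 libraries, and SRSF5, with the same core, did not pass. These matches are descriptions of letters, and no binding was measured.

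Levels between members can be compared per length of gene model only, and their order depended on the length used. Per kb of merged exons in GENCODE release 29, SRSF1 averaged 76.4 ± 12.3 CPM per kb in pre-dose and 81.0 ± 9.70 CPM per kb in untreated libraries, and SRSF2 73.5 ± 18.2 and 83.7 ± 12.3 CPM per kb (SD, n = 3 each), which did not differ beyond their spread. SRSF9 followed at 39.3 and 41.0 CPM per kb and SRSF6 at 30.8 and 30.1 CPM per kb, pre-dose given before untreated. SRSF3, SRSF7 and SRSF5 lay close together, between 18.2 and 22.96 CPM per kb. SRSF11 had 13.4 and 13.1 CPM per kb, SRSF4 10.3 and 10.51 CPM per kb, and SRSF10 was the lowest at 7.52 and 7.92 CPM per kb. Per kb of the median coding transcript, SRSF9, SRSF1 and SRSF2 again led, with 193, 180 and 160 CPM per kb in pre-dose and 201, 191 and 182 CPM per kb in untreated libraries. SRSF6 came last on that scale, at 32.7 CPM per kb in pre-dose and 32.0 CPM per kb in untreated libraries, its coding transcript being 4325 bases long against 764 bases for the median coding transcript of SRSF9. SRSF10 and SRSF4 stood higher in the order on that scale, with coding transcripts of 1631 and 1825.5 bases (medians) against merged exons of 10277 and 8893 bases.

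**Figure D4:**
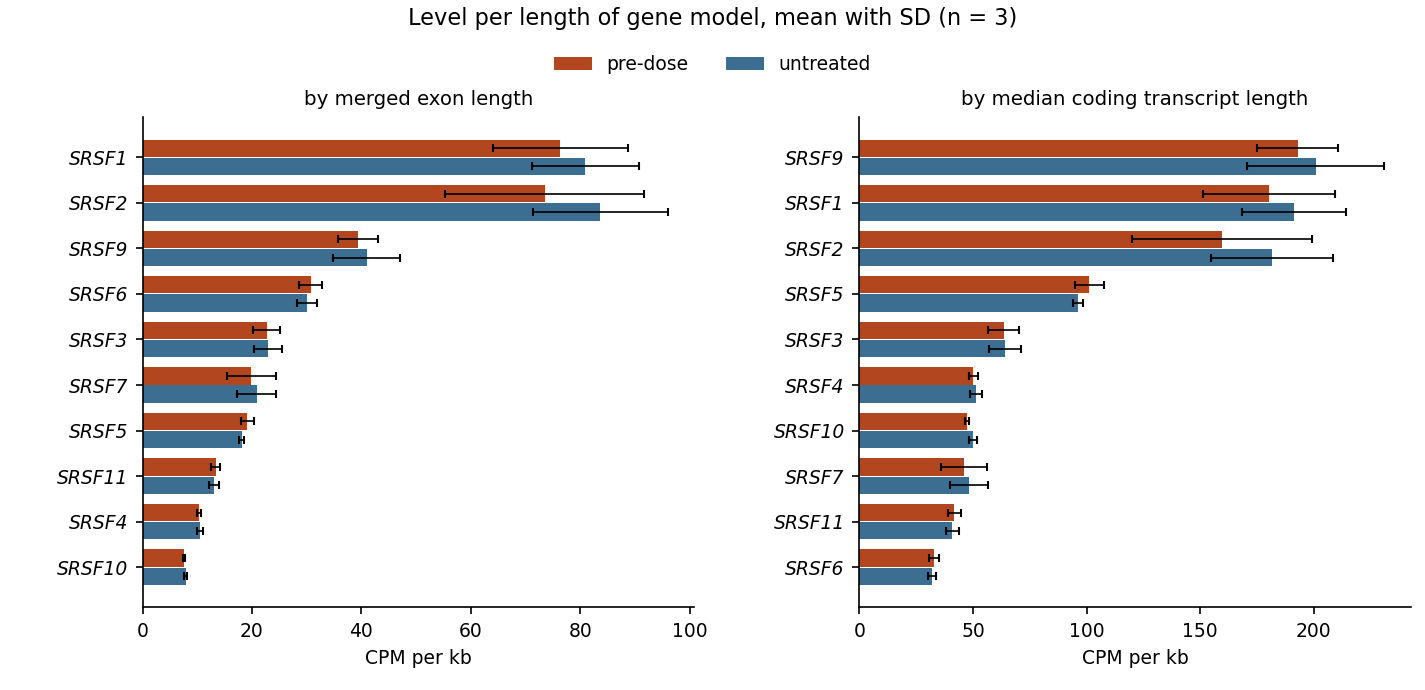
Mean level with SD (n = 3) of each SR protein gene per kb of gene model, pre-dose bars above untreated bars, divided by the merged exon length (left) and by the median coding transcript length (right). SRSF1, SRSF2 and SRSF9 lead on both scales, SRSF10 is lowest on the left and SRSF6 on the right.

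The kinases of the SR tail were examined next. TOP1 itself had 99.3, 92.5 and 96.5 CPM in pre-dose and 101, 91.3 and 89.7 CPM in untreated replicates 1, 2 and 3, and its log2 difference of 0.035 had the interval -0.12 to 0.19. CLK3 had 65.0, 60.2 and 59.1 CPM in pre-dose and 66.6, 65.0 and 67.1 CPM in untreated libraries, lower in each pair, with a difference of -0.11 (interval -0.25 to 0.035). Differences of the other CLK kinases were -0.041 for CLK1, 0.025 for CLK2 and -0.12 for CLK4, and those of the cytoplasmic kinases were -0.050 for SRPK1 and 0.0034 for SRPK2. Within the list of 17 kinases, phosphatases and transport factors the smallest unadjusted p values after that of CLK3 belonged to PPP1CA, a catalytic subunit of the phosphatase PP1 that removes phosphate from SR tails, at -0.098, and to the kinase DYRK1A at -0.077. With an adjusted p of 1.00 each, 0 of the 17 passed in limma-trend, and the median difference was -0.030.

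Of 30 measured SR-related proteins outside the 10, 0 passed, and their median difference was -0.0080. TRA2A, a splicing activator with an SR tail on each side of its recognition motif, had the smallest unadjusted p, 0.0288 in limma-trend, at 53.3 ± 1.44 CPM in pre-dose and 47.5 ± 1.90 CPM in untreated libraries (SD, n = 3 each), without passing after adjustment. It was higher in all 3 pairs. CLASRP, a partner of CLK4, differed by -0.095 and NSRP1, a speckle protein, by 0.084. ACIN1, a component of a splicing-dependent complex on mRNA, rose in replicates 2 and 3 alone by 0.13 (adjusted p = 0.0448, limma-trend), and TRA2A did not pass there (adjusted p = 0.0717). ACIN1 was the 1 of the 30 called in that fit, which called 6.36% of all genes.

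The hnRNP proteins, which often oppose SR proteins at the same exons, numbered 26 and had a median difference of -0.039, with 0 passing and 21 of 26 below 0, against 50.6% of all genes. Without untreated replicate 1 that count was 10 of 26 and without pre-dose replicate 2 it was 9 of 26. Without any 1 of the other libraries it was 19 to 23 of 26, and in replicates 2 and 3 alone 22 of 26. Among the hnRNP genes PTBP2, HNRNPDL and HNRNPA0 had the smallest unadjusted p values, with differences of 0.15, -0.070 and -0.13. In replicates 2 and 3 alone HNRNPA0 fell by 0.18 and PTBP1, a repressor of exon inclusion, fell by 0.20 on the log2 scale (adjusted p = 0.0452 and 0.0133, limma-trend). Of 45 core spliceosome genes 0 passed, with a median of -0.027, and USP39, SNRPA1 and SF3A2 led by p with -0.14, -0.12 and -0.098. SF1, which binds the branch point, fell by 0.17 in replicates 2 and 3 alone (adjusted p = 0.0169, limma-trend). Of 17 genes of nonsense-mediated decay 0 passed, with a median of -0.0015, SMG8 (0.13), SMG6 (0.080) and RBM8A (-0.050) having the smallest p values. ACIN1, HNRNPA0, PTBP1 and SF1 were named after their values had been seen. In replicates 2 and 3 alone the calls were 2 of 26 hnRNP, 1 of 45 core spliceosome and 1 of 30 SR-related genes. They were 0 of 17 in the kinase list and 0 of 17 in the decay list, against 6.36% of all genes.

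In the offset of the replicate 1 libraries the lists differed in their counts. Of the hnRNP genes, 18 of 26 passed (17 higher) with a median of 0.21, and of the core spliceosome genes 36 of 45 passed (34 higher) with a median of 0.24, beside 8 of 10 SR protein genes (7 higher) with a median of 0.21 and 40.8% of all genes with a median of -0.012. Among the other SR-related proteins 14 of 30 passed, 6 higher and 8 lower, with a median of 0.023. The kinase and phosphatase list had 8 of 17, 4 in each direction, and the decay list 9 of 17, 8 of them higher. SF1 had an offset of 0.47, PTBP1 of 0.49, PCBP1 of 0.41 and EIF4A3 of 0.44, each with one of the smallest p values of its list. TOP1 was higher by 0.11 in the replicate 1 libraries (adjusted p = 0.0445, limma-trend).

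**Figure D5:**
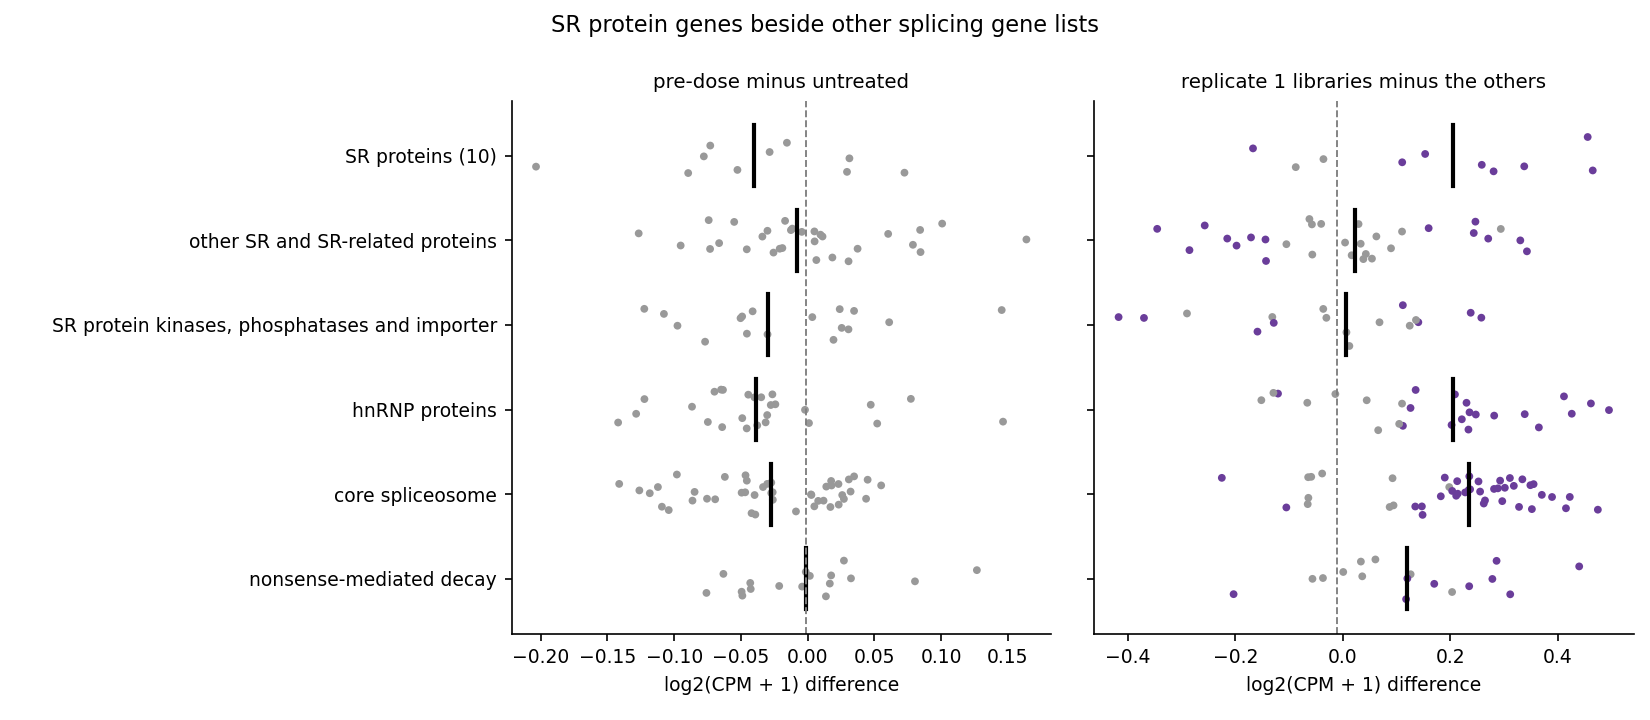
Log2(CPM + 1) difference of each measured gene of 6 lists, pre-dose minus untreated (left) and replicate 1 libraries minus the other 4 (right), with the list median as a black bar, the median of all genes tested as a dashed line and genes past an adjusted p of 0.05 in purple. No gene is purple on the left, and on the right the SR protein, hnRNP and core spliceosome medians lie at 0.21, 0.21 and 0.24.

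Genes whose pattern over the 6 libraries was most like the mean of the 10 SR protein genes, each scaled to an SD of 1, were CD3EAP, a subunit of RNA polymerase I, TLNRD1, IMPDH1, which acts in guanine nucleotide synthesis, NCOA5 and NOP56, a core protein of box C/D snoRNPs, with Pearson correlations of 0.9986 to 0.9996. The least like were LAMC1, a laminin chain, MYSM1 and ABLIM1, at -0.9997 to -0.9992. The replicate 1 libraries lie apart from the other 4, and these values describe that distance. NOP56 averaged 109 CPM in the replicate 1 libraries and 77.8 CPM in the others, and LAMC1 549 and 697 CPM, replicate 1 given before the others.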

How the data were processed

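RNA-seq libraries were made from poly-A RNA and read as paired ends on a NovaSeq instrument, per the labels' protocols. The authors deposited 1 table of 13773 rows, of which 77 repeated a gene identifier and were dropped. The authors deposited expression on a log2 scale, per the file headers, which the values show to be log2 CPM of estimated counts: in every library 100% of values under 200 reads were multiples of 0.01 read, and 53.0 to 55.8% were whole. The authors deposited log2 differences, p-values, a moderated score and a signed linear fold of their own comparison, coded as untreated minus pre-dose (83.5% of genes had the sign of that difference of means), as well as a count of annotated transcripts per gene. Tools named in the submitters' processing notes are DRAGEN, bcl2fastq, limma and edgeR, with the build hg38 and no roles. The counting step, its use of strand and its annotation were not given in the sources used.

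The filter kept genes averaging at least 1 CPM, which were tested on log2(CPM + 1) with limma-trend (limma 3.58.1, R 4.3.3), two-sided, with Benjamini-Hochberg adjustment over all genes tested and a threshold of 0.05. The added 1 understates changes of low genes. The fits were tested on data simulated with independent noise. For the treatment fit the simulation held no distance of the replicate 1 libraries, so it does not show how that fit behaves with this distance present. Alternatives were other pseudocounts, no filter, the deposited log2 values, median centring, library weights, a replicate block, replicates 2 and 3 alone and each library left out. The replicate 1 offset had the treatment as a covariate, and the interaction of both was fitted as well. Libraries of the same replicate number were read as pairs. Deviations of same-numbered libraries from their group means correlated across genes at 0.66, 0.45 and 0.18 for replicates 1, 2 and 3. Pre-dose replicate 2 reached 0.51 with untreated replicate 3, and pre-dose replicate 3 reached 0.28 with untreated replicate 2, both above their own numbers. The correlations thus set replicate 1 apart and do not match replicates 2 and 3 by number, so these 2 pairs rest on the shared number alone. The labels do not state a pairing. Gene models came from GENCODE release 29 (GRCh38), in which 13630 identifiers were found. The members and lists were chosen with earlier results of these data known. Named genes were the members, TOP1, SRPK and CLK kinases, CDKN1A and MDM2, 3 genes of smallest p per list, and those most and least like the members. Figures were drawn with matplotlib 3.10.9.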

Additional observations from a re-analysis of the deposited data

How the results depend on the processing

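Pseudocounts of 0.5 and 2 CPM, the deposited log2 values, no filter, median centring and the replicate block left 0 of 10 SR protein genes, 0 listed genes and 0 of all genes called, and each fit that left out a library gave 0 to 0 for all 3 counts. The replicate block changed no call: SRSF2 had -0.20 with an adjusted p of 0.310 and SRSF1 -0.090 with 0.440. Replicates 2 and 3 alone called 866 genes, 1 SR protein gene (SRSF2, -0.28) and 4 listed genes. Library quality weights called 3744 genes, 28 listed genes and 1 SR protein gene (SRSF2, -0.23, adjusted p = 0.0147), with SRSF3 turned to 0.029 and SRSF9 to 0.051; their estimation stopped before convergence, gave pre-dose replicate 3 a weight of 28.8 and both replicate 1 libraries 0.16 and 0.17. Leaving out a library turned the sign of 7 members that had not passed: SRSF1 ranged from -0.22 to 0.0065, SRSF3 from -0.10 to 0.071, SRSF4 from -0.062 to 0.012, SRSF6 from -0.023 to 0.079, SRSF7 from -0.25 to 0.055, SRSF9 from -0.12 to 0.067 and SRSF11 from -0.030 to 0.081. In each fit without a library, replicate 1 makes up unequal shares of the groups. The part of that imbalance in the signs was not tested. Without a library, SRSF2 ranged from -0.40 to -0.073, SRSF10 from -0.093 to -0.045 and SRSF5 from 0.026 to 0.11, and these 3 kept their sign in every alternative run. The replicate 1 offsets called 7 or 8 members in every alternative run, and the interaction 0. Counting error was at most 0.032 on the log2 scale, below the half-widths of the intervals from 3 libraries per group.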
